A study of Mus musculus with 9 samples.

Results

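The comparison described here sets the DNA kept in the nuclear residue of mouse embryonic stem cells against the DNA released from it, at the level of single StyI restriction fragments. All cells were E14Tg2a, an embryonic stem cell line of 129P2 background grown on gelatin with LIF, the cytokine that keeps such cells undifferentiated, and no group carried a further treatment. High-salt recovered sequences (HRS) are the StyI fragments left with the insoluble material of nuclei once high salt has been applied, and the Loop fraction holds those that come off. The fractions were sequenced in triplicate (3 HRS and 3 Loop libraries), and 3 of the 9 libraries of the series are unfractionated input DNA. The members were all adjoining StyI intervals of the mm9 map except the last interval of each of 21 chromosomes, which left 3053721 of 3053742 intervals, and 2540973 of them had a count in at least 1 HRS or Loop library. Whether the replicates came from separate cultures is not stated in the labels, so p-values measure only the spread between these libraries.

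Interphase chromosomes are folded into loops and compartments, and extraction with high salt strips histones and most soluble protein while a part of the DNA stays with a residual nuclear structure. DNA near transcribed genes, nuclear bodies and attachment regions has been recovered in such residues, whereas long stretches without genes are classically found in the loops that come free. StyI cuts at CC, 2 bases that are each A or T, then GG, and a short tag from a fragment end was sequenced, so each fragment is counted by its ends and not by coverage along its length.

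Genes could be tied to fragments where the RefSeq promoter sequence (GRCm38.p6) itself held several StyI sites, because the distances between the sites were then looked up in the deposited mm9 map. Of 371 promoter windows with at least 3 sites, 281 had exactly 1 match on their chromosome, and all 281 lay in the order of the RefSeq genes. A further 106 were placed by their pattern and that order together, which gave 387 windows of 437 genes, and 9 of the windows with at least 3 sites had no match. The following are fragments lying wholly inside a placed promoter, shown as examples of promoter fragments called in each direction. The first 4 were higher in HRS and the last 3 higher in Loop. Each is printed on the plus strand of its chromosome from the StyI site at one end to the site at the other, and the capitals mark those 2 sites.
Dapk3: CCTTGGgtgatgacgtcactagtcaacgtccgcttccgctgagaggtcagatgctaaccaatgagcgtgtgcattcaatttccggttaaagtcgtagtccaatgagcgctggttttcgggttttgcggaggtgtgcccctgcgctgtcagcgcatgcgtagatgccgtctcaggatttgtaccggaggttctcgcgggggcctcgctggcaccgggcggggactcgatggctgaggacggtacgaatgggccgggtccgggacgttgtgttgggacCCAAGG
Brd9 and Trip13: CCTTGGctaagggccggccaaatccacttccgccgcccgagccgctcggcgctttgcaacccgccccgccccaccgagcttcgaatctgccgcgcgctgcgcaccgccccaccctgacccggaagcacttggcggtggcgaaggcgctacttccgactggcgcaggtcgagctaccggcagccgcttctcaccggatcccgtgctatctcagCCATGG
Nek9: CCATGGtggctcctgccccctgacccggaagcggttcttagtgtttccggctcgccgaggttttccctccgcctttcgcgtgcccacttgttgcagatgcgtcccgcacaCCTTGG
Atat1: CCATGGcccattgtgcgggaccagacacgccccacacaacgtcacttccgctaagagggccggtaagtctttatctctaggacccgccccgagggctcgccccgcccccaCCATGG
Olfr536: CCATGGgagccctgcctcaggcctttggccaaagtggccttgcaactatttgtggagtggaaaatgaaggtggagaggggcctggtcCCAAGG
Gsg1l2: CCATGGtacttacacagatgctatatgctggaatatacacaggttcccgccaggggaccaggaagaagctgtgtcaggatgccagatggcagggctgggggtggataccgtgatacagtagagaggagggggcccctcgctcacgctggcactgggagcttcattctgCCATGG
Fcnb: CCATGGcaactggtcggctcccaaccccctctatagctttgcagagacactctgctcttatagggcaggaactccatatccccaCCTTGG

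Fragment length separated the fractions before any gene did. Fragments of up to 100 bp took 12.9% ± 0.638 (SD, n = 3) of the counts in HRS and 28.9% ± 3.85 (SD, n = 3) in Loop, against 10.5%, 11.3% and 11.3% in the 3 inputs. Fragments longer than 500 and up to 1000 bp took 20.6% ± 0.483 in HRS, 12.8% ± 3.29 in Loop and 22.8% ± 0.535 in the inputs (SD, n = 3 each). In all 6 length ranges the HRS and Loop libraries did not overlap, and each difference had a two-sided exact permutation p of 0.1, the smallest that 3 against 3 allows. The Loop libraries also differed among themselves, with 9.13% of the counts of replicate 3 in fragments of that range against 15.4% and 13.9% in replicates 1 and 2. Every comparison below therefore sets fragments of like length against each other, through a library size for each of 20 length classes, and a length-corrected count is a count divided by the library's relative size in the class.

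**Figure D1:**
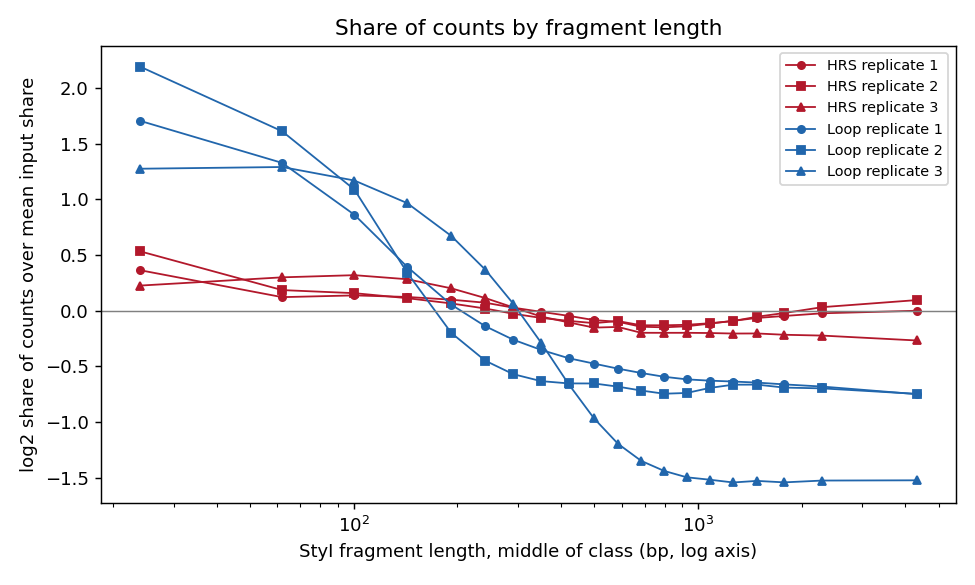
Share of counts in 20 classes of StyI fragment length, as the log2 ratio to the mean share of the 3 inputs (vertical axis), against fragment length in bp (horizontal, log axis), 1 line per library. Loop libraries (blue) lie above HRS (red) in the shortest classes and below it in the longest, and Loop replicate 3 falls furthest beyond about 500 bp.

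At like length, more single fragments were called higher in HRS than in Loop, and the HRS calls came in groups. On simulated counts 18% of 2-fold changes at single fragments were recovered, so the calls do not number all retained or released fragments. Of 1744841 fragments with enough counts to test, 75775 (4.34% of those tested) had more HRS and 22232 (1.27%) more Loop counts (edgeR quasi-likelihood test, Benjamini-Hochberg adjusted p under 0.05). The median fold was 2.49 among the former and 2.69 among the latter, and 7914 and 2889 differed by over 4-fold. An adjoining fragment was called the same way for 55.5% of the HRS calls, where 6.78% of all tested fragments had a neighbour called higher in HRS. For the Loop calls the share was 5.88%, where 1.93% of all tested fragments had a neighbour called higher in Loop. Runs of at least 5 adjoining HRS calls numbered 1838 and the longest held 35 fragments over 53.6 kb, whereas no run of Loop calls exceeded 4 fragments. The number of calls rests on the libraries at hand: without Loop replicate 1 it was 26852 higher in HRS and 6311 higher in Loop, without Loop replicate 2 it was 33143 and 5564, without Loop replicate 3 it was 40105 and 9845, and without HRS replicate 1 the Loop calls fell to 12593.

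Short fragments gave more calls than long ones. Of tested fragments longer than 100 and up to 200 bp, 6.17% were higher in HRS and 1.42% higher in Loop, and of those over 2000 bp 2.87% and 1.37%. The counts behind a call also differ with length, with a median of 239 counts summed over the 6 libraries in the former range and 80 in the latter, and the part of this depth in the call rates was not tested. The most frequent length in the map was 264 bp, with 34929 fragments, of which 87.9% had no count in any of the 6 libraries and 7.07% could be tested. Retention of most fragments of this length was therefore not measurable here.

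The fragments with the largest ratios in favour of HRS were almost empty in Loop. They were chosen for those ratios, as called and with groups that do not overlap, so their low Loop counts are no result. On chromosome 5, the 736 bp fragment at 125885821 to 125886557 had 582, 734 and 1069 counts in HRS replicates 1, 2 and 3 and 1, 3 and 0 counts in Loop, with 29, 35 and 12 in the inputs. At like length its summed counts stood at 491 times those of Loop (95% exact counting interval 191 to 1802). All 10 tested fragments within 5 places of it were also called higher in HRS. On chromosome 13, the 2487 bp fragment at 22030577 to 22033064 had 61, 38 and 95 counts in HRS and 0 in every Loop library. Against 3 counts over the Loop group, the limit that a count of 0 allows, it was at least 44.7-fold higher in HRS. It lies between the placed promoters of 4930470G03Rik and Gm35109, an interval of 9.17 Mb that holds 53 replication-dependent histone genes and 80 tRNA genes. On chromosome 11, the fragments at 68875851 to 68877247 and at 68938173 to 68939038 had 253, 357 and 616 and 603, 854 and 1512 counts in HRS, against 1, 3 and 0 and 6, 9 and 2 counts in Loop. That interval runs from Gsg1l2 to Txndc17 and holds Aurkb, a mitotic kinase, Per1, a clock gene, and 18 tRNA genes. The other 6 fragments named by the same rule lay on chromosomes 1, 2, 3, 13 and 14, with 63 to 828 counts in the HRS libraries and no more than 9 in any Loop library. In all 10, at least 7 of the 8 to 10 tested fragments nearby were called the same way.

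The fragments with the largest ratios in favour of Loop had few tested neighbours. On chromosome 5, the 762 bp fragment at 78120866 to 78121628 had 65, 77 and 37 counts in Loop, 5, 5 and 2 in HRS and 21, 23 and 27 in the inputs, a log2 ratio of -4.20 ± 0.39 (SE). On chromosome 8, the fragment at 81837702 to 81839155 had 74, 46 and 38 counts in Loop and 3, 9 and 0 in HRS, at -4.16 ± 0.49 (SE). On chromosome 6, the fragment at 117421931 to 117423391 had 97, 121 and 76 counts in Loop and 20, 7 and 9 in HRS. All 10 were chosen as called with groups that do not overlap, so that separation is no result. Only 1 to 7 fragments within 5 places of each could be tested. None of them was called higher in Loop for 9 of the 10, and 1 of 7 was for the fragment on chromosome 5 at 120453333. Of all tested fragments 1.27% were higher in Loop, so so few neighbours cannot show whether these fragments stand alone.

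Promoters of protein-coding genes were often retained. Of 1203 tested fragments that touch a placed promoter, 165 (13.7%) were higher in HRS and 21 (1.75%) higher in Loop, and fragments of the same length ranges genome-wide were called at 4.98% and 1.41%. For promoters of protein-coding genes 151 of 845 fragments (17.9%) were higher in HRS, and for promoters of lncRNAs and other genes 14 of 358 (3.91%). With promoters placed by their pattern alone the shares were 13.7% and 1.75%, and without chromosomes 8 and 11 they were 13.4% and 1.77%. Placed promoters are those rich in StyI sites, so they are no sample of all promoters. The share in HRS was lower far from a placed promoter than near it, though it did not fall at every step. Under 1 kb away 13.3% of tested fragments were higher in HRS, 10.8% at 1 to 5 kb, 9.28% at 5 to 20 kb, 9.50% at 20 to 100 kb, 6.17% at 100 kb to 1 Mb and 3.54% beyond. Distance was taken to placed promoters only, which belong to 437 of 27025 genes with a promoter sequence. The farther ranges therefore also hold promoters that were not placed.

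Dapk3, a kinase of cell death and of actomyosin contraction, had the largest ratios of the promoters named. All 3 fragments at its promoter on chromosome 10 were called. Its window held 2 StyI sites, so its place rests on the distance between them and on the gene order. The fragment printed above (80645605 to 80645881) had 422, 344 and 982 counts in HRS and 36, 19 and 27 in Loop, with 68, 76 and 46 in the inputs, a log2 ratio of 4.75 ± 0.40 (SE, adjusted p = 1.3e-07 by edgeR). Promoters were named by the largest ratio among called fragments with groups that do not overlap, so the gap between the libraries here is no result. The fragment upstream on the map (80645111 to 80645605) had 116, 78 and 194 counts in HRS and 2, 1 and 7 in Loop, at 5.17 ± 0.53 (SE). Within 30 kb of it 106 fragments could be tested, of which 78 were higher in HRS, none was higher in Loop and 28 were not called, with a median log2 ratio of 1.40.

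**Figure D2:**
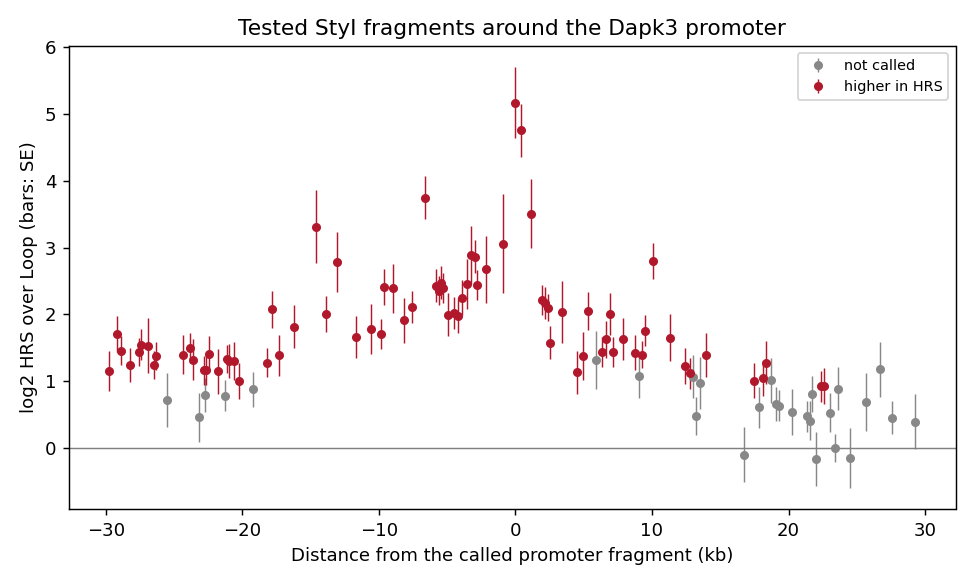
The log2 ratio of HRS over Loop (vertical axis, bars are standard errors) of the 106 tested StyI fragments within 30 kb of the called Dapk3 promoter fragment, against distance in kb. The fragments at the promoter reach 5.17, and 78 of the 106 (red) were called higher in HRS, the farthest of them more than 20 kb away on either side.

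The other retained promoters named belong to genes of varied function. The fragment shared by the divergent promoters of Brd9, a bromodomain subunit of a BAF chromatin remodeller, and Trip13, an ATPase of the mitotic checkpoint (chromosome 13, 74075130 to 74075342), had 150, 100 and 110 counts in HRS and 12, 13 and 24 in Loop, at 3.44 ± 0.27 (SE). The neighbouring fragment inside the same promoter was called too, and the long fragments on either side were not. At Nek9, a mitotic kinase (chromosome 12, 86680301 to 86680411), the counts were 232, 160 and 95 in HRS and 57, 41 and 51 in Loop, at 2.99 ± 0.26 (SE). Atat1, the tubulin acetyltransferase (chromosome 17, 36046979 to 36047089), had 228, 219 and 183 counts in HRS and 88, 117 and 107 in Loop, at 2.33 ± 0.20 (SE). Its neighbour in the map order, Mdc1, a mediator of the DNA damage checkpoint, had 63, 67 and 65 against 21, 20 and 37 counts, at 2.22 ± 0.27 (SE). The fragments named here were chosen as called and not overlapping. The windows of Nek9, Mdc1, Tmem186 with Pmm2, Apobec3, Cactin and Rbm4b also held 2 StyI sites and were placed with the help of gene order. At Rilpl2, a regulator of ciliary traffic, all 5 tested fragments were higher in HRS, the largest at 2.73 ± 0.40 (SE). Tmem186 with Pmm2 (a phosphomannomutase of glycosylation), Mzf1, Apobec3, Cactin, Gm30771, Rbm4b, Dcaf11, Lipe and Dcst2 with Dcst1 complete the 15 named, with log2 ratios of up to 2.97. Leaving out 1 library ended the call for 3 of the 15 (edgeR): for Apobec3 it was Loop replicate 1 (adjusted p = 0.0597), for Dcaf11 HRS replicate 3, Loop replicate 1 or Loop replicate 3 (up to 0.180), and for Dcst2 with Dcst1 any library but Loop replicate 3 (up to 0.248). For 3 of the shortest, at Rilpl2, Gm30771 and Rbm4b, the call rests on the length correction. The 54 bp fragment of Rbm4b, an RNA-binding protein, had 52, 61 and 115 counts in HRS and 66, 63 and 47 in Loop before it. The 446 bp fragment beside it, where the correction is small, had 93, 115 and 85 against 25, 25 and 22, at 1.98 ± 0.25 (SE).

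Promoters with a released fragment were named by the same rule. Olfr536, an olfactory receptor (chromosome 7, 147693309 to 147693396), had 17, 15 and 6 counts in HRS and 91, 119 and 102 in Loop, with 38, 59 and 56 in the inputs, at -1.73 ± 0.30 (SE). Slc17a6, the vesicular glutamate transporter of neurons, had 18, 7 and 12 against 46, 62 and 47 counts, at -2.49 ± 0.38 (SE). Myh6, the cardiac myosin heavy chain, had 23, 18 and 17 against 44, 46 and 17 counts, at -1.27 ± 0.33 (SE, adjusted p = 0.022 by edgeR), and Loop replicate 3 was level with HRS replicate 3 before the length correction. Fcnb, a ficolin of innate immunity, had 23, 47 and 26 against 140, 235 and 143 counts, at -1.11 ± 0.27 (SE). Gsg1l2 had 21, 13 and 22 against 74, 60 and 94 counts, at -1.46 ± 0.30 (SE). Radil, Ccdc60, Ptf1aos, Gm31251, Gm30388, Gm39823, Gm50590, 2010109P13Rik, Gm43915 and 4930527A07Rik make up the 15 named. At each of the 15, only 1 fragment was called higher in Loop, out of 1 to 5 tested. Several of these calls rest on single libraries. That of Myh6 was lost without replicate 1 or 2 of either fraction and without the length correction (adjusted p of up to 0.231 by edgeR), and that of Fcnb without HRS replicate 1, Loop replicate 1 or Loop replicate 2 (up to 0.153). Leaving out 1 library also ended the calls of Gm39823 (HRS replicate 1 or Loop replicate 1), Gm50590 (HRS replicate 1 or Loop replicate 3), Ccdc60 (Loop replicate 1 or 2), Gm43915 (Loop replicate 2), 2010109P13Rik (any library but HRS replicate 3) and 4930527A07Rik (HRS replicate 1 or any Loop library). Without the length correction the calls of Gm50590, Gm43915 and 2010109P13Rik were lost too. Among fragments wholly inside promoters, the 99 higher in HRS had a median of 61.9% G and C and 6.50 CpG per 100 bases, the 464 not called 58.0% and 1.83, and 4 of the 7 higher in Loop held no CpG, as did 13 of the 99 and 128 of the 464. The part of base composition in the calls was not tested.

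**Figure D3:**
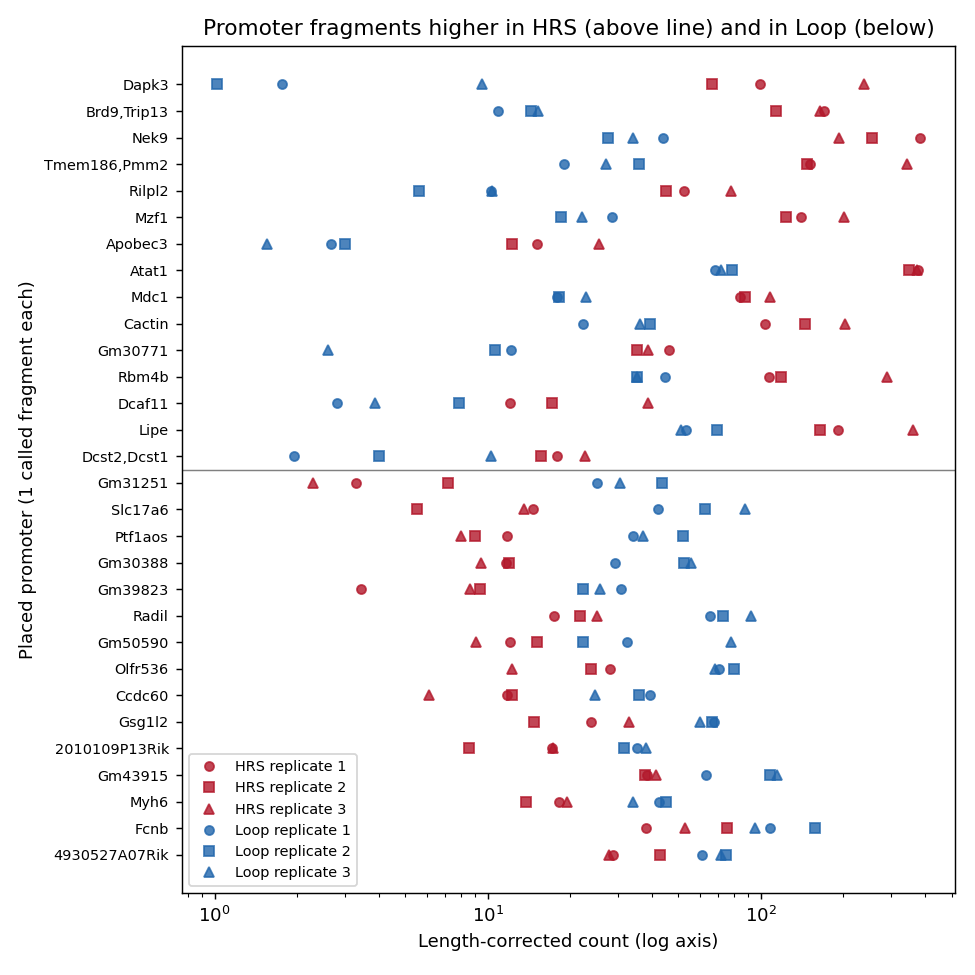
Length-corrected counts (horizontal, log axis) of 1 called fragment at each of 30 placed promoters, 15 higher in HRS (above the line) and 15 higher in Loop (below), with 1 point per library (red HRS, blue Loop). The fragments were chosen as called and not overlapping, and the widest gap is that of Dapk3.

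Over blocks of 100 kb, more were called higher in Loop than in HRS, while those higher in HRS differed by more. Of 25400 blocks tested, 4918 (19.4%) were higher in HRS and 7180 (28.3%) higher in Loop by edgeR, with counts compared with those expected from the lengths of the fragments in each block. The median fold was 1.40 in the former and 1.26 in the latter, and 329 against 19 blocks differed by over 2-fold. The median log2 ratio of all blocks was -0.11, and both the split of the calls and this median moved with the scaling. The calls were 4047 and 8726 with class totals in place of TMM factors, 2597 and 13795 without the length correction, and 2680 and 16578 with expected counts from the inputs, with median ratios of -0.19, -0.30 and -0.36. Calls higher in HRS were 40.7% of all calls in the main fit, and 31.7%, 15.8% and 13.9% under these settings. The larger number in Loop does not hold at every scale: of bins of 10 kb 31668 were higher in HRS and 27047 higher in Loop. At an adjusted p of 0.01 (edgeR) the 100 kb blocks were nearly level, at 3788 higher in HRS and 3880 higher in Loop. Without Loop replicate 2 the Loop calls numbered 4314. Calls of both kinds were fewer in blocks poor in StyI fragments: 14.7% and 7.28% of blocks with up to 97 fragments were higher in HRS and in Loop, and 24.6% and 39.2% of those with at least 140.

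The most retained blocks lay in a few places. In the block of chromosome 13 that starts at 23500001, the counts were 1.65, 1.57 and 2.10 times the expected in HRS and 0.268, 0.279 and 0.283 times in Loop, a log2 ratio of 2.68 ± 0.12 (SE), and 86 of its 94 tested fragments were higher in HRS. The block of chromosome 13 at 22000001, in the same histone and tRNA interval, stood at 2.11 ± 0.092 (SE) with 65 of 84 fragments called. The block of chromosome 11 at 68800001 had 103 of 123 fragments called, at 1.88 ± 0.17 (SE). Blocks of chromosome 11 at 48600001 and 87200001, of chromosome 6 at 128700001, of chromosome X at 166400001 and of chromosome 13 at 21200001 had 54 to 63 or, on X, 25 of 27 tested fragments called. The 2 other blocks named differ in kind. The block of chromosome 7 at 87600001 had the largest ratio, 2.91 ± 0.28 (SE), with 12 of 100 fragments called, and the block of chromosome 17 at 39900001 had 4 of 23. Most blocks higher in Loop were shallow: 8 of the 10 named had log2 ratios between -0.76 and -0.69, with 14 to 22 of 126 to 155 tested fragments higher in Loop and none higher in HRS. The other 2, on chromosome 7 at 14200001 (-1.36 ± 0.29, SE) and X at 47300001 (-1.12 ± 0.18, SE), rested on 28 and 27 tested fragments, of which 2 and 1 were higher in Loop.

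Adjoining blocks formed long runs of both kinds. The longest runs higher in HRS spanned 21 blocks, on chromosome 10 from 79100001 to 81200000 and on chromosome 3 from 94500001 to 96600000, with mean log2 ratios of 0.83 and 0.84, and another of 20 blocks lay on chromosome 4 from 131700001. In the chromosome 10 run 1255 of 3478 tested fragments were retained and 6 released. The longest runs higher in Loop were longer and flatter, with 35 blocks on chromosome 9 from 27200001 to 30700000 at a mean of -0.39, and 31 blocks on chromosome 16 from 5300001 to 8400000 at -0.44. On chromosome 9, 69 of 2795 tested fragments were released and none was retained. Over all tested fragments 4.34% were higher in HRS and 1.27% higher in Loop. Runs of at least 10 blocks numbered 37 in HRS and 95 in Loop in the main fit. They rest on block calls whose split moved with the scaling.

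**Figure D4:**
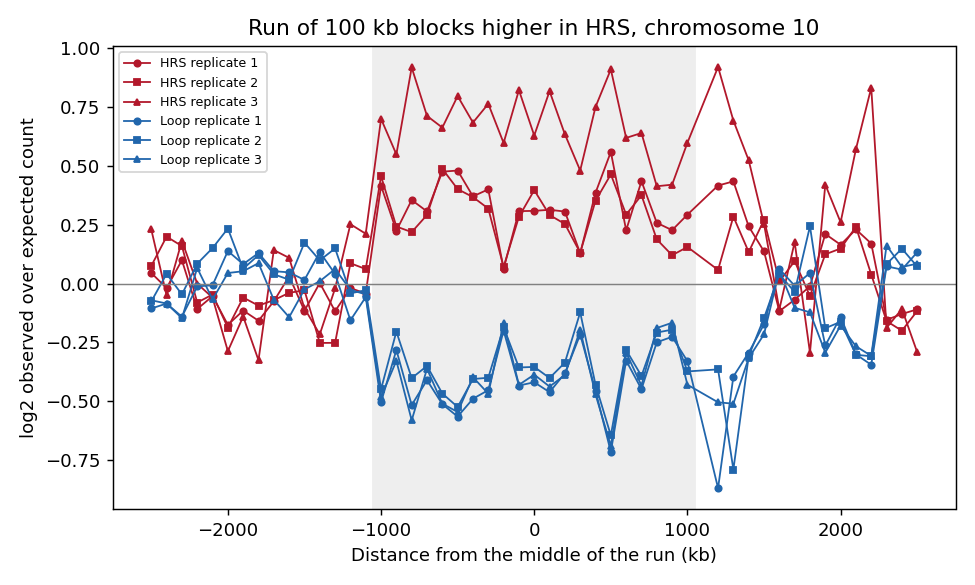
Observed over expected count (log2, vertical axis) of 100 kb blocks across the run on chromosome 10 and 1500 kb on either side, against distance from its middle in kb, 1 line per library. In the shaded run of 2100 kb the HRS libraries (red) lie above the Loop libraries (blue), with HRS replicate 3 highest.

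Gene content of these stretches was read from 310 intervals between placed promoters, which cover 2039 Mb (79.0% of the mapped length) and, by the RefSeq gene order, 17724 protein-coding genes. A value for an interval is not a value for a gene in it. By edgeR 99 intervals (31.9%) were higher in HRS and 25 (8.06%) higher in Loop. Without Loop replicate 1, 2 or 3 the numbers were 38 and 6, 40 and 6, and 50 and 17, and they were 93 and 16 without HRS replicate 1, 97 and 17 without HRS replicate 2 and 126 and 40 without HRS replicate 3. The median log2 ratio was 0.06, and -0.21 without the length correction, where 12 and 155 were called. With expected counts from the inputs 23 were higher in HRS and 167 higher in Loop, so the split turns with these settings. The 4 intervals from Hcn2 to Cactin on chromosome 10 lie in the run above and had log2 ratios of 0.83 ± 0.14 (Hcn2 to Kiss1r), 0.96 ± 0.092 (Kiss1r to Adamtsl5), 0.78 ± 0.12 (Adamtsl5 to Gng7) and 0.97 ± 0.11 (Gng7 to Cactin, all SE). They hold 93 protein-coding genes in 1.6 Mb, among them Ptbp1, a splicing regulator, Polr2e, a subunit of RNA polymerase II, Dot1l, the H3K79 methyltransferase, and Eef2, a translation elongation factor. Between 31.9% and 46.0% of their tested fragments were higher in HRS. Dhrs13 to Unc119 on chromosome 11, with Supt6 and Rpl23a, stood at 0.91 ± 0.19 (SE), and Mpig6b to Gm32362 on chromosome 17, with Tnf, the splicing helicase Ddx39b and MHC class I genes, at 0.76 ± 0.12 (SE). Spint5 to 1700025C18Rik, Tssk6 to Armc6, Pxt1 to Gm46603 (with Srsf3 and Cdkn1a) and Armc6 to Pgls followed at 0.76 to 0.62. By edgeR the call was lost without Loop replicate 2 for Dhrs13 to Unc119 (adjusted p = 0.0572), without Loop replicate 1 or 2 for Tssk6 to Armc6 (up to 0.0748), and without any 1 Loop library for Armc6 to Pgls (up to 0.117). The calls of the last pair were also lost without the length correction (0.107 and 0.196), and that of Armc6 to Pgls with expected counts from the inputs. HRS replicate 3 was the highest library in all 10 intervals. In the 3 on chromosomes 8 and 11 it stood at 1.66 to 1.82 times the expected count and HRS replicates 1 and 2 at 1.08 to 1.19 times. In the others it stood at 1.51 to 1.69 times and replicates 1 and 2 at 1.17 to 1.32 times.

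Among the intervals named for Loop, those described first held 0 to 6 protein-coding genes in 0.226 to 0.778 Mb. Few genes there do not always mean low density: Ambp to Aknaos, with 5 in 0.226 Mb, falls in the densest class below. Those described later held 10 to 38. Myt1l to Pxdn on chromosome 12, whose 1 protein-coding gene Myt1l is a neuronal transcription factor, stood at -0.53 ± 0.072 (SE), and the adjoining interval Trappc12 to Myt1l at -0.34 ± 0.052 (SE). Ambp to Aknaos on chromosome 4, with the liver acute-phase genes Orm1, Orm2 and Orm3, stood at -0.43 ± 0.048 (SE), and Gm36251 to Gm39436 on chromosome 9, with 0 protein-coding genes, at -0.37 ± 0.085 (SE). Gm5617 to Htr3b, with the serotonin receptor genes Htr3a and Htr3b, stood at -0.34 ± 0.055 (SE). In 4 of these 5 intervals no fragment was higher in HRS, and in Trappc12 to Myt1l 4 of 839 were. The call of Gm36251 to Gm39436 was lost without Loop replicate 1 or 2 (adjusted p of up to 0.0648 by edgeR). Adap2 to Zfp830 on chromosome 11 stood at -0.28 ± 0.088 (SE) and was not called without HRS replicate 1 or 2 or any 1 Loop library.

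Gene density ordered the intervals. The 82 intervals with at least 20 protein-coding genes per Mb had a median log2 ratio of 0.41, and 57 were higher in HRS and 4 higher in Loop. With 10 to 20 genes per Mb the median was 0.11 (27 and 7 of 85 called), with 5 to 10 it was 0.01 (15 and 7 of 89), and in the 54 gene-poor intervals with under 5 it was -0.03 (0 and 7). Summed over the densest class, log2 observed over expected was 0.10, 0.09 and 0.37 in HRS replicates 1, 2 and 3 and -0.17, -0.12 and -0.12 in Loop. The difference between the densest and the poorest class was 0.21 ± 0.20 (SD, n = 3) in HRS and -0.15 ± 0.026 (SD, n = 3) in Loop, with a two-sided exact permutation p of 0.1, the smallest possible. HRS replicate 3 sets the wide SD. Chromosome 11 took 8.70% of its counts and 7.96% of those of Loop replicate 3, against 6.39% to 6.97% in the other 7 libraries, and chromosome 8 took 6.55% and 6.73% against 5.47% to 5.72%. The difference between the fractions was 0.36 with all libraries, 0.26 without replicate 3 of both and 0.32 without chromosomes 8 and 11. The share of tested fragments higher in HRS was 2.07% in the poorest class and 11.4% in the densest, while that higher in Loop was 1.09% and 1.08%. Across the 310 intervals Spearman's rho between gene density and log2 ratio was 0.67, a description of intervals that share the same libraries.

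**Figure D5:**
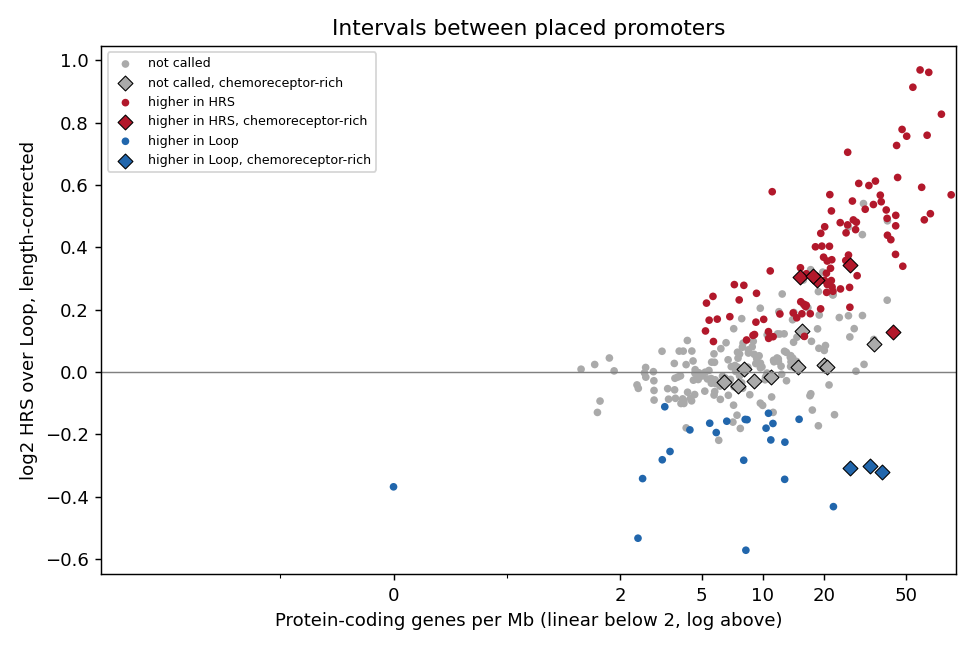
The length-corrected log2 ratio of HRS over Loop (vertical axis) of 310 intervals between placed promoters, against protein-coding genes per Mb (linear below 2, log above). Intervals higher in HRS (red) gather above 20 genes per Mb, and diamonds mark intervals rich in olfactory and vomeronasal receptor genes.

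Dense intervals rich in chemoreceptor genes stood apart, as a class, from other dense intervals. Of the 82 densest intervals, 8 were rich in olfactory and vomeronasal receptors (at least 5 such genes and 20% of the protein-coding genes). In these 8 the fractions differed by 0.05 in log2 observed over expected, and 2 were higher in HRS and 3 in Loop. In the other 74 they differed by 0.38, and 55 were higher in HRS and 1 (Ambp to Aknaos) in Loop. The 3 released ones were Paox to Olfr533 (-0.32 ± 0.053, SE) and Olfr533 to Cyp2e1 (-0.30 ± 0.067, SE) on chromosome 7 and Ctns to Gm50590 (-0.31 ± 0.089, SE) on chromosome 11. By edgeR the second was not called without Loop replicate 1 or 2 (adjusted p of up to 0.0648), nor the last without HRS replicate 1 or 2 or any 1 Loop library (up to 0.112). The difference between these 2 kinds of interval was not tested, and the limits that define them were set with the values known. Over all intervals, 274 vomeronasal receptors lie in 16 intervals, with 144 genes in intervals higher in HRS and 0 in intervals higher in Loop. For 1023 olfactory receptors in 44 intervals the numbers are 252 and 57. For all protein-coding genes the shares are 33.1% and 2.91%. Genes of an interval share its value, so they are no replicates, and a difference between the families was not tested.

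Members of gene lists were given the value of the interval they sit in, since no value per gene was measured, and their counts are to be read against all protein-coding genes, of which 33.1% lie in intervals higher in HRS and 2.91% in intervals higher in Loop. Of 67 replication-dependent histone genes, 64 lie in 3 intervals higher in HRS, 53 of them in the chromosome 13 interval (0.31) and 10 in Krtcap2 to Vtcn1 on chromosome 3 (0.33). Neat1 and Malat1, lncRNAs of paraspeckles and nuclear speckles, share 1 interval, Rbm4b to Gm10353, at 0.57. Ribosomal protein genes lie in HRS intervals for 34 of 66, splicing factors for 18 of 41, housekeeping genes for 8 of 18 and hosts of snRNAs and snoRNAs for 12 of 35, and of these 4 lists only the last has members in Loop intervals (2). Pluripotency genes lie in HRS intervals for 7 of 17, among them Pou5f1 (Gm32362 to Mdc1, 0.50), Klf2 (0.46), Lin28a (0.40) and Esrrb (0.17). The genes Utf1 (-0.16) and Tcl1 (-0.17) lie in Loop intervals. Intervals of Sox2 (-0.04), Klf4 (0.002), Zfp42 (0.007), Tfcp2l1 (-0.06), Dppa4 (-0.006), Dppa5a (-0.01), Klf5 (0.04) and Tbx3 (0.19) were not called. The median over the list was 0.04. At the placed promoter shared by Gm32362 and Pou5f1, the fragment wholly inside was not called (0.69 ± 0.26, SE, adjusted p = 0.129 by edgeR), and 1 of the 2 flanking fragments was higher in HRS (0.78 ± 0.23, SE). The HoxB and HoxC clusters lie in HRS intervals (0.54 and 0.55) of 5.18 and 1.06 Mb, that of HoxB close to the limit (adjusted p = 0.0442 by edgeR). The intervals of HoxA and HoxD, at 0.02 and 0.03, were not called. They span 44.2 and 1.75 Mb, so the 4 values are not alike in scale. Keratin genes lie in HRS intervals for 76 of 104, vomeronasal receptors for 144 of 274 and olfactory receptors for 252 of 1023, with 57 olfactory receptors in Loop intervals. Of the 76 keratin genes, 50 share the interval of HoxB and 26 share Gm35711 to Amhr2 on chromosome 15 (0.17). Imprinted genes lie in HRS intervals for 2 of 20 and in Loop intervals for 5, which are Snrpn, Ube3a, Ndn, Magel2 and Mkrn3 in 1 interval at -0.11. Very long neuronal genes lie in HRS intervals for 3 of 33 and in Loop intervals for 0. None of the 57 clustered protocadherins lies in an interval.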

How the data were processed

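Counts per StyI fragment were deposited by the authors as whole-number tables with chromosome, start, end and count for each library, per the file contents. Per the labels' protocols, an adaptor with an MmeI site was ligated to StyI ends and MmeI cut short tags that were sequenced. CASAVA 1.8.2 and the build mm9 are named in the submitters' processing notes, whereas the aligner and its handling of tags with several matches were not given in the sources used here. Totals were 39.1 to 52.5 M counts in HRS and 58.7 to 62.9 M in Loop, and 55.2 to 62.2 M in the inputs. Groups came from the sample titles. The inputs, titled D0, D12 and D21, were used only as a background.

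Fragments were divided into 20 length classes, each library got a TMM size in each class, and HRS was set against Loop with the quasi-likelihood test of edgeR 4.0.16 (R 4.3.3) after filterByExpr with a minimum count of 10. Adjusted p-values are Benjamini-Hochberg values over all features of a fit. A standard error is the size of a log2 ratio over the root of its F value. Blocks and intervals used the counts expected from the pooled 6 libraries and the class sizes as an offset. Intervals run between placed promoters at least 200 kb apart. The fit per gene foreseen at first was replaced by placed promoters and intervals, since no mm9 annotation was used here, and no coordinate was converted between builds. Counting intervals and the limit of 3 counts for a count of 0 cover counting error only.

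The named items were the 10 called fragments and blocks of largest ratio in each direction with groups that do not overlap and at least the median abundance, 1 fragment per block, the 3 longest runs, the 10 intervals, and 15 promoters with 1 fragment each. Members, lists and rules were chosen with earlier results of these data known. Same-numbered HRS and Loop libraries deviated together over 100 kb blocks (correlations of 0.316, 0.112 and 0.358, each over the limit of 0.1), so the title numbers were read as pairs, although HRS replicate 2 correlated at 0.277 with Loop replicate 1 and the same-number values were 0.149, 0.0376 and 0.171 without chromosomes 8 and 11. The main fits held no pairing term, and the permutation tests shuffled the 6 libraries without regard to pairs. On simulated counts, 96% of 4-fold and 18% of 2-fold changes were recovered among 150000 single fragments, and 100% of both among 25400 blocks, with 3.39% and 5.21% false among calls. The simulated counts were drawn independently, without pairs, and blocks were fitted with their true expected counts. Called blocks had median folds of 1.40 (HRS) and 1.26 (Loop), so recovery of changes that small was not simulated. Alternatives were no length correction, 60 classes, class totals, median-of-ratios factors, no filter, DESeq2 1.42.0, an adjusted p of 0.01, the replicate number as a block, each library left out, replicate 3 or chromosomes 8 and 11 left out, expected counts from the inputs, and 10 kb bins. The repeat tables were not used. The result for 1 of the named intervals is not reported here.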

Additional observations from a re-analysis of the deposited data

How the results depend on the processing

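Without the length correction 137318 fragments were higher in HRS and 261835 in Loop, 2597 and 13795 blocks, and 12 and 155 intervals, and 4 intervals were called the opposite way. With expected counts from the inputs, 2680 and 16578 blocks and 23 and 167 intervals were called, 7 of the intervals the opposite way. At an adjusted p of 0.01 (edgeR), 33602 and 5490 fragments, 3788 and 3880 blocks, and 41 and 7 intervals remained called. In 10 kb bins 31668 were higher in HRS and 27047 in Loop, the opposite order to that of the 100 kb blocks. Class totals without TMM gave 45 intervals higher in Loop, and leaving out replicate 3 of both fractions gave 61. Leaving out 1 library at a time gave 26852 to 69979 fragments higher in HRS and 5564 to 23141 in Loop, 3894 to 5653 and 4314 to 8403 blocks, and 38 to 126 and 6 to 40 intervals. The density difference ranged from 0.24 to 0.42 over all settings. With the replicate number as a block, 84880 and 30288 fragments, 5363 and 8847 blocks, and 105 and 34 intervals were called, and no count moved by over 1.5 times. All 20 named fragments and all 20 named blocks kept their calls under the alternatives run for them, as did 13 of 20 named intervals and 16 of 30 named promoter fragments, and none reversed.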
